A study of Rattus norvegicus with 30 samples.

Results

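The 44 genes described here encode the machinery of DNA replication and S phase. They were chosen by gene symbol, with their normalized counts in DMF vs. DMSO, MMF vs. DMSO and CBD vs. EtOH at 4 and 24 h, and in DMF at 24 vs. 4 h, already known. All 44 symbols were listed, among 21993 genes in all, and each passed the filter on low counts in all 15 comparisons, so no member was lost. *Cdc45* has 2 gene records, and the second held between 0 and 18 reads per library and was not tested. The cells were primary hippocampal neurons of wild-type Wistar rat embryos, a culture whose growth protocol names no agent against dividing cells. They received 30 µM dimethyl fumarate (DMF), 30 µM monomethyl fumarate (MMF) or 6 µM cannabidiol (CBD). Control cultures received the vehicle alone at 0.2%, and this was dimethyl sulfoxide (DMSO) where a fumarate was compared and ethanol (EtOH) where CBD was. DMF carries 2 methyl esters on fumaric acid and MMF carries 1, while CBD is a plant cannabinoid of unrelated structure. Treatment lasted 4 or 24 h, and each of the 10 groups had 3 poly(A) RNA libraries, which makes 30 in all.

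DNA replication starts when the origin recognition complex, Cdc6 and Cdt1 load the MCM helicase onto origins in G1. Kinases then turn it into the active Cdc45-MCM-GINS (CMG) helicase, behind which polymerases copy both strands on the PCNA clamp. Many of these genes are transcribed under E2F factors, which the retinoblastoma family restrains and cyclin E with Cdk2 releases at the G1/S border. Neurons are postmitotic, so that in hippocampal cultures such transcripts are mostly known from dividing glia and progenitors. In bulk RNA, fewer dividing cells and less of these RNAs per cell cannot be told apart.

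The promoters of these genes are shown first because E2F letters and CCAAT letters each stand in most of their windows. RefSeq windows of the GRCr8 assembly, from 250 bases before to 50 bases after the transcription start, were found for 38 of the 44 genes (40 windows, 3 of them for *Uhrf1*). *Ccne2*, *Rrm2*, *Cdc6*, *E2f1*, *Mcm4* and *E2f2* had no entry. An E2F-type match (the letters TTCCCGC or their variants TTCGCGC as well as TTGCCGC together with TTGGCGC, on either strand) stood in 29 of the 40 windows, or 72.5%, against 9.52% of all 33469 promoter windows. CCAAT, the box bound by NF-Y, stood in 27 windows (67.5%, against 37.5%), and TTTGAA, the cell cycle homology region (CHR), in 3 (7.50%, against 18.3%). These letters were not particular to the members. In windows of the further replication and S phase genes described below, E2F matches stood in 65.3% and CCAAT in 44.9%. For the G1/S control genes described below the shares were 34.8% and 30.4%, and for the mitosis genes 31.6% and 78.9%. In 2 of the 40 windows of the members an E2F and a CCAAT match shared bases. The median G+C content of the windows was 59.7%, against 51.7% for all, and the comparison includes genes that these cells do not express. The windows of *Mcm3*, *Mcm5*, *Gins1* and *Rfc3*, whose counts did not overlap between DMF and DMSO at 24 h, and of *Prim1* and *Tyms*, whose counts did, are given below 5′ to 3′, with E2F and CCAAT matches in capitals. They lie at chr9:30733697-30733996 (minus strand, *Mcm3*), chr19:13488563-13488862 (plus strand, *Mcm5*), chr3:160184670-160184969 (plus strand, *Gins1*), chr12:5836318-5836617 (plus strand, *Rfc3*), chr7:1031212-1031511 (plus strand, *Prim1*) and chr9:120776034-120776333 (minus strand, *Tyms*). *Prim1* and *Tyms* each hold 1 E2F match as well, so that the presence of these letters did not separate the 6 genes shown. By number, *Mcm3*, *Gins1* and *Rfc3* hold 2 matches and *Mcm5* holds 3, with overlapping matches counted singly. Any link between these letters and the fold changes was not tested. In *Gins1* and at the upstream site of *Mcm5*, 2 matches overlap because the site reads as a match on both strands.
Mcm3: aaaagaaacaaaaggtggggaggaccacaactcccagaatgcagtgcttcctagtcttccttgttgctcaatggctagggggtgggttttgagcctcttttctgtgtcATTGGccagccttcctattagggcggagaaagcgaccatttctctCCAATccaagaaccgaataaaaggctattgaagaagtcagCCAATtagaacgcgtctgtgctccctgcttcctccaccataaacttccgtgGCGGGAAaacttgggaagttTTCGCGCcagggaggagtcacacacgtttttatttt
Mcm5: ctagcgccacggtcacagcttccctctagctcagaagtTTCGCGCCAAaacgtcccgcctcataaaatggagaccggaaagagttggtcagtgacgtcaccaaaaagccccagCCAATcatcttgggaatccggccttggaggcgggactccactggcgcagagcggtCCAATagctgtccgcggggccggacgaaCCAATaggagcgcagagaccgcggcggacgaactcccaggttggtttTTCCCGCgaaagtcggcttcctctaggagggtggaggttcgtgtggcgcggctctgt
Gins1: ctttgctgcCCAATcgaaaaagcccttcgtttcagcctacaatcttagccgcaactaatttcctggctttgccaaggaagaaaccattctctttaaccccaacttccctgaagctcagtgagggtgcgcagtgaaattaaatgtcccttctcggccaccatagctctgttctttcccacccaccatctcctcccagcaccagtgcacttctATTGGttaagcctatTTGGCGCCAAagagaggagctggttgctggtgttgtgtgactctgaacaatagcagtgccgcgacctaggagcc
Rfc3: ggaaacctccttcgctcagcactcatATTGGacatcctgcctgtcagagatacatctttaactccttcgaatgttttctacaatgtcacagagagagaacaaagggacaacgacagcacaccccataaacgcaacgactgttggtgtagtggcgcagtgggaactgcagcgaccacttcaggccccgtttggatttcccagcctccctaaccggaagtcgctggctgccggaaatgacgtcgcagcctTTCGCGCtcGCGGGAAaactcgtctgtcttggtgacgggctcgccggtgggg
Prim1: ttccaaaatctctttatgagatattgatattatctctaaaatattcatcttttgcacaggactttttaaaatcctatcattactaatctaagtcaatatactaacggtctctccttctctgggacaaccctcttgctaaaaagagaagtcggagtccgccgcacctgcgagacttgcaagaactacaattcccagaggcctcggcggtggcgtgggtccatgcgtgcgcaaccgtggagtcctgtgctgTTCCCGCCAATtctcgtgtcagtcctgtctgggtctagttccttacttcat
Tyms: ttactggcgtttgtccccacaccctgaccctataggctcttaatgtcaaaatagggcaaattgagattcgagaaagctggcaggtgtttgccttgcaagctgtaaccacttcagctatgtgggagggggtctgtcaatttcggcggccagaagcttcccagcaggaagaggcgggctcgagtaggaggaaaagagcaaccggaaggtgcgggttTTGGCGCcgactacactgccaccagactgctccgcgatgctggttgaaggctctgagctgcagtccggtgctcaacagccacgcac

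Between 15108132 and 25367834 reads per library lay on genes, with a median of 20088658. The members were counted from 46 reads in the median library for *E2f2*, the lowest of those tested, to 2252 reads for *Dnmt1*. The labelled cell type had its markers: the 10 neuron markers, such as *Rbfox3* and *Tubb3*, were counted at 1686 reads or more in every library. Markers of astrocytes (*Gfap*, 9883 reads or more) and of oligodendrocyte precursors (*Pdgfra*, 513 reads or more) were present in every library too. Of the microglia markers, *Cx3cr1* stayed under 10 reads in 27, *P2ry12* in 29, *Itgam* in 25, *Aif1* in 22 and *Csf1r* in 6 of the 30 libraries, while *Cd68* had 18 to 117 reads.

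In 9 of the 10 groups, the members' levels summed to much the same total, and the DMF group at 24 h stood below all others. As CPM, that is reads scaled to a common library size with TMM, the sum over the 44 genes was 700 ± 66.7 (SD, n = 3) with DMF at 24 h, and 702.1, 632.6 and 766 in replicates 1, 2 and 3. The next lowest group, DMSO at 24 h, summed to 998 ± 21.7, and EtOH at 24 h, the highest, to 1110 ± 78.1. With MMF and CBD at 24 h, the sums were 1030 ± 18.8 and 1070 ± 123. At 4 h, the 5 groups lay between 1030 ± 46.9 with CBD and 1090 ± 70.6 with DMSO, and DMF gave 1040 ± 51.6. No library outside the DMF group at 24 h fell below its highest one, and the lowest of them was CBD replicate 3 at 24 h, with 928.5. DMF at 24 h had the lowest mean of the 10 groups for 43 of the 44 members. The exception was *Tyms*, thymidylate synthase, which was lowest with DMF at 4 h, at 29.8 ± 3.21 CPM against 31.5 ± 2.75 with DMF at 24 h.

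**Figure D1:**
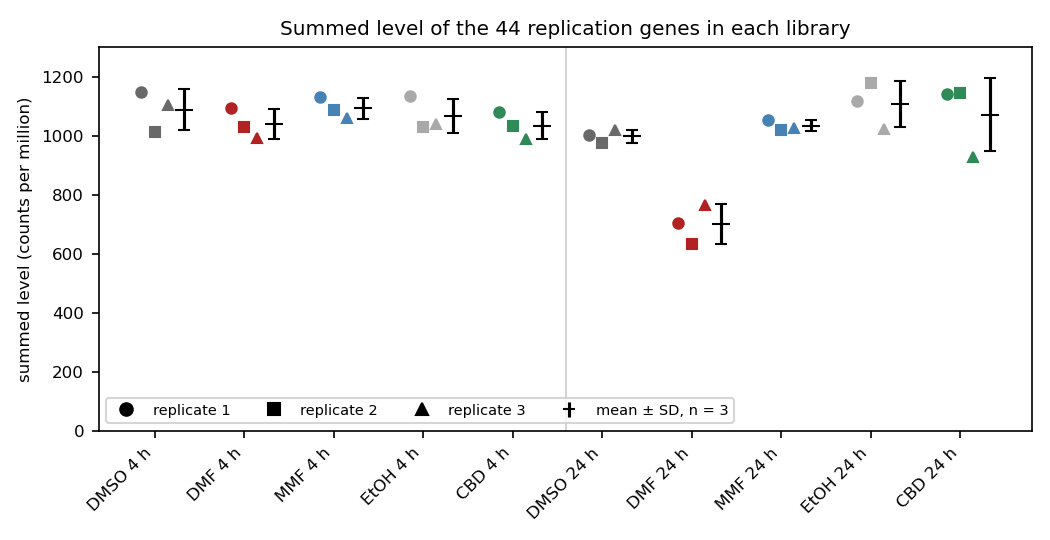
Summed level of the 44 replication genes, in CPM, in each of the 30 libraries by group, with the mean ± SD of 3 replicates. The 3 libraries with DMF at 24 h lie between 632.6 and 766, below all others.

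The comparison of DMF with DMSO at 24 h asks what the longer treatment did to these genes. Values per library are normalized counts, which are reads divided by a size factor within the 6 libraries compared, and fold changes (log2FC) are differences of mean log2(normalized count + 1) with their SE. All 44 members had a lower mean log2 count with DMF, where 51.7% of all 13967 genes tested did, and their median log2FC was -0.63, against -0.01 for all genes. The range ran from -1.29 for *Rrm2* to -0.05 for *Tyms*. The 3 DMF libraries lay below all 3 DMSO libraries for 40 members, where 11.5% of all genes did so. By limma, a moderated linear model across all genes, at a Benjamini-Hochberg adjusted p under 0.05, 23 members were called lower and none higher, beside 2.09% of all genes called lower. With the replicate number, which was taken to pair the libraries, as a block, 37 members were called lower, beside 7.10% of all genes. These values belong to the comparison by which the members were chosen, so they describe the set and test nothing.

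The count of members called changed when a library was left out, which also made its group smaller, while the direction did not change. Without DMF replicate 1, 2 or 3 at 24 h, 14, 11 and 35 members were called, and without DMSO replicate 1, 2 or 3, 5, 10 and 8. The share of all genes called was not computed for these fits. *Rrm1*, *Rrm2*, *Tk1*, *Brca1* and *Clspn* were called whichever library was left out. Over all alternatives tried, the median log2FC stayed between -0.70 and -0.54.

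Markers of other cell types moved beside these genes. Of all genes, limma called 2.09% lower and 1.88% higher in this comparison, and with the block 7.10% lower and 5.81% higher. Of 9 oligodendrocyte lineage markers, 5 fell by limma with Benjamini-Hochberg adjustment, among them *Pdgfra* (log2FC -1.56 ± 0.16 SE, adjusted p = 0.00137), *Cspg4* (-1.14 ± 0.08, adjusted p = 0.000574) and *Sox10* (-1.36 ± 0.17, adjusted p = 0.00331), which mark precursors that divide in culture. The summed normalized counts of the 9 were 11355 to 14109 with DMF and 14412 to 17976 with DMSO. Of 8 neural progenitor markers, 3 fell (*Hes5*, *Eomes* and *Fabp7*), with sums of 24639 to 29089 and 27721 to 37585. Of 8 astrocyte markers, 1 fell (*Aldh1l1*; with the block 3 fell and 1 rose), with sums of 54411 to 94092 and 48248 to 80259. None of 10 neuron markers was called, though 4 fell with the replicate block, and their sums were 101840 to 121730 with DMF and 120072 to 136441 with DMSO. None of 5 markers of GABAergic neurons was called (1 with the block), at 5071 to 5850 and 5730 to 6703. None of 5 markers of fibroblasts and vessels was called, at 829 to 1104 and 774 to 1114. Of 6 microglia markers, 2 could be tested and neither was called, at sums of 58.4 to 85.1 and 55.9 to 58.9. The part of these cells in the lower replication counts was not tested.

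Of the members that load the helicase or help to activate it, *Mcm10* and *Cdc6* were among the lowest. The origin recognition complex, which also acts in loading, is not among the members and is described further below. *Mcm10*, which helps to activate the loaded helicase, had normalized counts of 77.9, 50 and 116 in the 3 DMF libraries and 201, 178 and 175 with DMSO (log2FC -1.25 ± 0.27). *Cdc6*, the helicase loader, had 48.2, 21.7 and 50.8 with DMF and 88.3, 76.8 and 101 with DMSO (log2FC -1.20 ± 0.31). DMF replicate 2 was the lowest library for both, and neither gene's groups overlapped. *Cdt1*, the second loader, had a log2FC of -0.77 ± 0.21. Of the 3, *Mcm10* was called, and with the block all 3 were.

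Within the MCM2-7 helicase, the 6 subunits differed in extent although they form 1 ring. *Mcm3* had 168, 125 and 184 normalized counts with DMF and 353, 293 and 308 with DMSO, a log2FC of -1.01 ± 0.16. *Mcm5* had 248, 187 and 313 with DMF and 475, 452 and 510 with DMSO, a log2FC of -0.97 ± 0.17. The groups did not overlap for either, and the mean of *Mcm5* with DMF was 0.521 of that with DMSO. *Mcm7*, *Mcm2* and *Mcm6* had log2FC values of -0.77, -0.62 and -0.43. *Mcm4* stood apart, with 837, 734 and 841 against 945, 883 and 926, a log2FC of -0.19 ± 0.08, though its groups did not overlap either. *Mcm2*, *Mcm3*, *Mcm5* and *Mcm7* were called, and *Mcm6* as well with the block. The span of *Mcm7* (chr12:17042212-17050063, mRatBN7.2) shares 4160 bases with *Cops6*, and it is not stated how reads in such stretches were assigned.

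The partners that complete the active helicase followed. *Gins1*, a subunit of the GINS ring, had 51.2, 55.4 and 77.4 normalized counts with DMF and 110, 107 and 109 with DMSO (log2FC -0.84 ± 0.19). *Cdc45* had 95.3, 68.4 and 98.6 with DMF and 148, 143 and 143 with DMSO (log2FC -0.74 ± 0.17). For both, the DMSO libraries were nearly alike, and every DMF library was lower. *Gins2* and *Gins3* had log2FC values of -0.59 ± 0.19 and -0.52 ± 0.21, and neither was called with or without the block. *Gins2* lies wholly within the span of *Emc8*, a gene with more reads (390.4 per library on average against 59).

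The clamp and its loader differed less. *Rfc3*, a loader subunit, had 192, 163 and 255 normalized counts with DMF and 314, 305 and 292 with DMSO (log2FC -0.60 ± 0.16). *Rfc4* had 229, 162 and 212 with DMF and 272, 291 and 278 with DMSO (log2FC -0.50 ± 0.14). *Pcna*, the sliding clamp, and *Rfc5* had log2FC values of -0.43 ± 0.11 and -0.35 ± 0.11. None of the 4 was called without the block, and all 4 were called with it.

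Of the polymerases, *Pole*, the catalytic subunit of the leading strand polymerase, was lowest. It had 224, 185 and 250 normalized counts with DMF and 403, 386 and 395 with DMSO (log2FC -0.85 ± 0.12). *Pola2*, a subunit of the polymerase alpha-primase complex, had 119, 92.3 and 136 with DMF and 184, 172 and 199 with DMSO (log2FC -0.69 ± 0.16). In both genes, every DMF library was below every DMSO library. *Pole2*, *Pola1* and *Pold1* had log2FC values of -0.66, -0.65 and -0.49. *Prim1*, the primase that starts each strand in the same complex as *Pola2*, was different, with 487, 466 and 385 normalized counts with DMF and 562, 484 and 380 with DMSO. Its groups overlapped and its log2FC was -0.08 ± 0.15.

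Among the single-strand and lagging strand genes, *Rpa2*, which coats unwound DNA, had 147, 158 and 165 normalized counts with DMF and 219, 262 and 252 with DMSO (log2FC -0.64 ± 0.12). *Lig1*, the ligase that joins Okazaki fragments, had 702, 595 and 811 with DMF and 995, 970 and 1058 with DMSO (log2FC -0.53 ± 0.11). Neither gene's groups overlapped. *Fen1*, the flap nuclease, had a log2FC of -0.46 ± 0.15. The first pair was called, and *Fen1* with the block.

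Nucleotide supply held both the most and the least affected member. *Rrm2*, the S phase subunit of ribonucleotide reductase, had 162, 143 and 167 normalized counts with DMF and 398, 397 and 365 with DMSO (log2FC -1.29 ± 0.11), so that its mean with DMF was 0.407 of that with DMSO. *Tk1*, the S phase thymidine kinase, had 187, 173 and 196 with DMF and 396, 438 and 387 with DMSO (log2FC -1.13 ± 0.10). The replicates of both lay close together and far from the other group. *Rrm1*, the constant subunit of the reductase, had a log2FC of -0.53 ± 0.07. *Tyms*, which makes thymidylate, had 608, 609 and 521 with DMF and 594, 567 and 636 with DMSO (log2FC -0.05 ± 0.09), and its groups overlapped.

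Among the genes that copy chromatin and its marks, *Uhrf1* differed most and also varied most between libraries. *Uhrf1*, which brings DNA methylation to the new strand, had 155, 118 and 235 normalized counts with DMF and 264, 267 and 280 with DMSO (log2FC -0.73 ± 0.22). *Ezh2*, the methyltransferase of histone H3 lysine 27, had 392, 317 and 380 with DMF and 501, 474 and 523 with DMSO (log2FC -0.46 ± 0.10). DMF replicate 3 came near the DMSO libraries for *Uhrf1*, while for *Ezh2* replicates 1 and 3 lay together. *Chaf1a*, *Chaf1b* and *Dnmt1* had log2FC values of -0.44, -0.45 and -0.30. Of the 5, *Ezh2* was called, and all but *Chaf1b* were with the block.

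Of the factors that open S phase, *E2f2*, an activating E2F, was counted lowest. It had 24.6, 14.1 and 15.2 normalized counts with DMF and 34.9, 40.1 and 57.2 with DMSO (log2FC -1.26 ± 0.30). *Ccne2*, a cyclin E, had 156, 136 and 123 with DMF and 222, 207 and 204 with DMSO (log2FC -0.61 ± 0.13). The groups of both genes were apart, although *E2f2* has too few reads for a close estimate. *Ccne1* and *E2f1* had log2FC values of -0.49 ± 0.13 and -0.39 ± 0.08. *Ccne2* and *E2f1* were called, and all 4 with the block.

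All 5 recombination and checkpoint members were called lower. *Clspn*, the fork protein claspin that relays the checkpoint signal to Chk1, had 86.1, 70.6 and 100 normalized counts with DMF and 217, 192 and 209 with DMSO (log2FC -1.27 ± 0.16). *Exo1*, the exonuclease of end resection, had 34.8, 25 and 36.4 with DMF and 85.0, 55.5 and 88.3 with DMSO (log2FC -1.21 ± 0.25). No DMF library of either gene reached a DMSO library. *Rad54l*, *Brca1* and *Brca2*, which act in repair by recombination, had log2FC values of -1.07, -0.93 and -0.87.

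**Figure D2:**
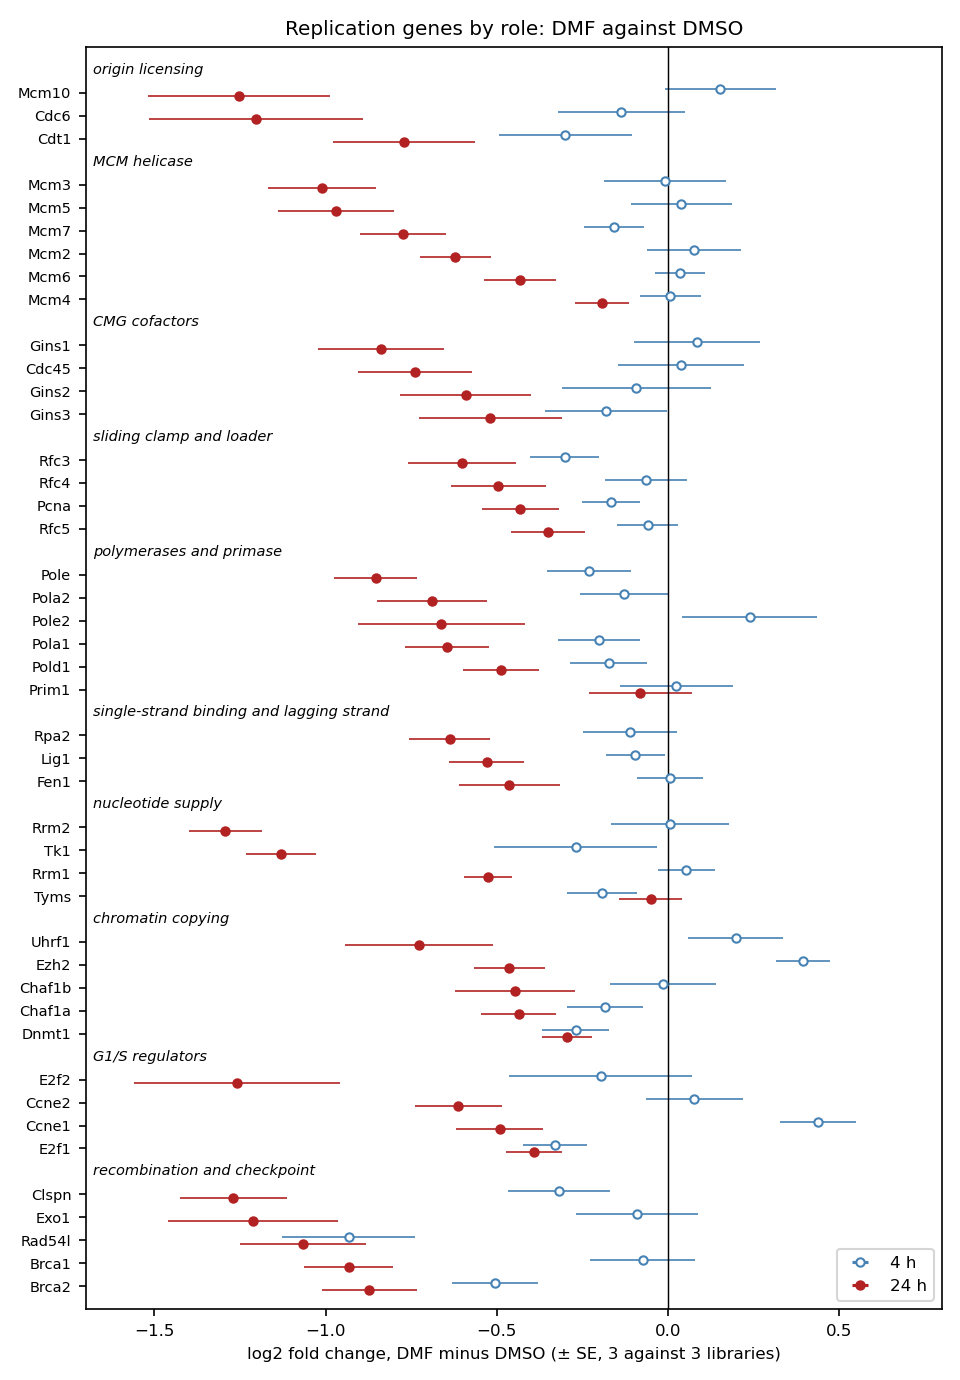
Log2 fold change of each of the 44 replication genes, DMF minus DMSO, at 4 h (open points) and 24 h (filled points), with bars of 1 SE of 3 against 3 libraries, grouped by role. At 24 h all points lie below 0, from -1.29 for *Rrm2* to -0.05 for *Tyms*, while at 4 h they lie on both sides, from -0.93 for *Rad54l* to 0.44 for *Ccne1*.

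After 4 h with DMF, most of these genes did not differ from DMSO beyond the spread of the libraries, and the few that did went both ways. Of the 44, 28 had a log2FC below 0, where 49.4% of all genes did, and the median was -0.09. By limma, *Ezh2* was called higher and *Rad54l* lower, beside 1.87% and 1.55% of all genes. Neither call held when any 1 of the 6 libraries was left out. With the replicate block, 2 members were called higher (*Ezh2* and *Ccne1*) and 5 lower (*Rad54l*, *Brca2*, *E2f1*, *Rfc3* and *Dnmt1*), beside 11.5% of all genes in each direction, so that the share of members was not above the background.

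The early movers are named for contrast, having been picked after their values were seen. *Rad54l* had 67.6, 57.1 and 52.0 normalized counts with DMF at 4 h and 113, 95.9 and 132 with DMSO (log2FC -0.93 ± 0.19), about as far apart as at 24 h. *Brca2* had 144, 146 and 143 with DMF and 199, 224 and 193 with DMSO (log2FC -0.51 ± 0.13). These 2 repair genes were thus low at both times, with groups that did not overlap at either. *Rad54l* (chr5:129575378-129605070, mRatBN7.2) shares 72 bases with *Lrrc41*, a gene with more reads. *Ezh2* had 885, 810 and 821 with DMF and 671, 621 and 624 with DMSO (log2FC 0.39 ± 0.08). *Ccne1*, which with Cdk2 drives entry into S phase, had 387, 386 and 450 with DMF and 297, 281 and 325 with DMSO (log2FC 0.44 ± 0.11). Both were higher in every DMF library at 4 h and lower in every one at 24 h. *Ezh2* (chr4:76624399-76687362, mRatBN7.2) shares 3582 bases with *Cul1*, a gene with more reads.

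Of the members with the largest changes at 24 h, 3 are given for 4 h. *Rrm2* had 577, 539 and 417 normalized counts with DMF at 4 h and 614, 509 and 410 with DMSO. *Mcm3* had 380, 328 and 274 against 346, 258 and 387, and *Mcm10* had 264, 222 and 225 against 240, 170 and 235. All 3 overlapped between groups, with log2FC values of 0.01 ± 0.17, -0.01 ± 0.18 and 0.15 ± 0.16. At 4 h, none of the 9 oligodendrocyte lineage markers was called by limma, beside 3.41% of all genes. With the block 3 were called, beside 23.0% of all genes. The summed counts of the 9 overlapped, at 9869 to 13789 with DMF and 11879 to 13795 with DMSO.

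**Figure D3:**
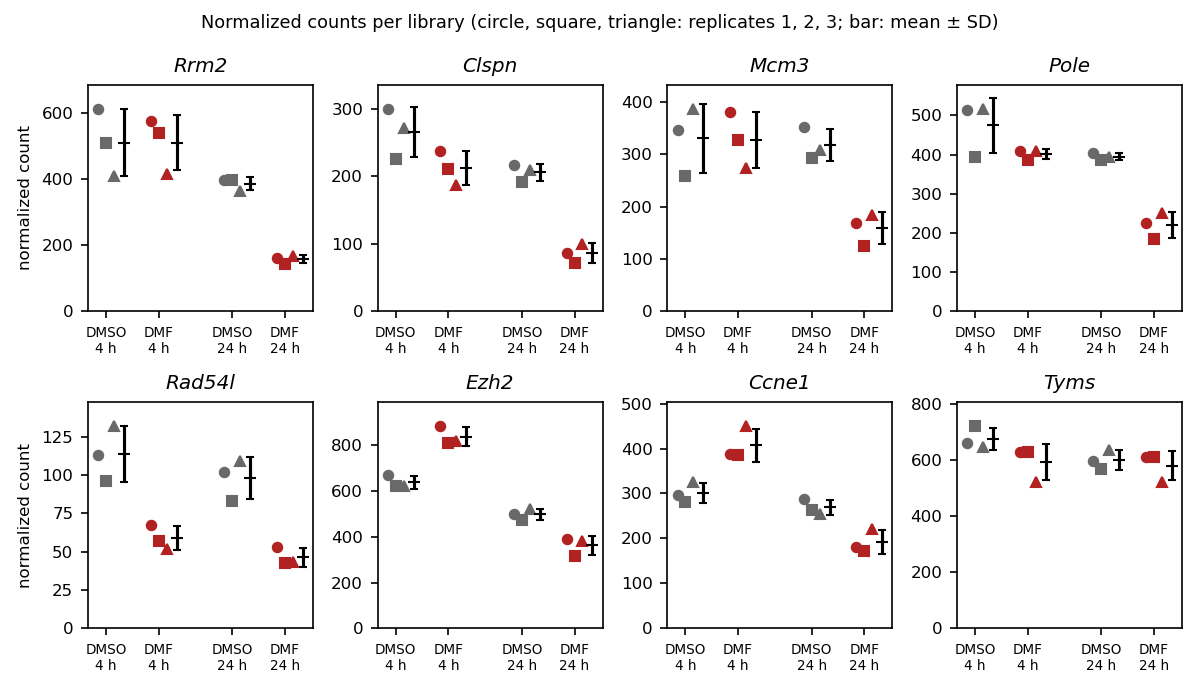
Normalized counts of 8 members in each library with DMSO or DMF at 4 and 24 h (circles, squares and triangles are replicates 1, 2 and 3, bars are the mean ± SD, and each time has its own scaling). *Rrm2*, *Clspn*, *Mcm3* and *Pole* drop with DMF at 24 h, *Rad54l* is low at both times, *Ezh2* and *Ccne1* lie above DMSO at 4 h and below it at 24 h, and *Tyms* overlaps at 24 h.

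Between 4 and 24 h of DMF, 43 of the 44 members were lower at the later time, where 49.9% of all genes were. This comparison holds the same DMF libraries of 24 h as the comparison with DMSO, and it too had a part in the choice of the members. The median log2FC was -0.70, from -1.57 ± 0.15 for *Rrm2* to 0.09 ± 0.11 for *Tyms*. By limma 28 members were called lower (36 with the block), beside 7.93% of all genes (16.1% with the block), and 37 did not overlap between the times, beside 18.3%. Without DMF replicate 2 at 24 h, and likewise without DMF replicate 1 at 4 h, 17 members were called.

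*Rrm2* had 180, 159 and 186 normalized counts at 24 h of DMF and 594, 554 and 426 at 4 h. *Uhrf1* had 172, 132 and 262 against 434, 408 and 430 (log2FC -1.22 ± 0.22), and *Ezh2* had 437, 352 and 424 against 910, 833 and 841 (log2FC -1.09 ± 0.11). Groups were far apart in all 3 genes. Of the 5 members that the block called lower than DMSO at 4 h, *Rad54l*, *E2f1* and *Dnmt1* had log2FC values between the times of -0.23 ± 0.21, -0.08 ± 0.10 and -0.02 ± 0.08. The other two, *Brca2* and *Rfc3*, had log2FC values of -0.37 ± 0.14 and -0.59 ± 0.16. In DMSO over the same hours, 37 of 44 members had a log2FC below 0, beside 49.9% of all genes, with a median of -0.11. None was called there by limma, edgeR, DESeq2 or the block, beside 0 of all genes by limma and 1.47% with the block, 5 had an unadjusted p under 0.05, and the smallest limma adjusted p was 0.411, for *Rrm1*. The DMSO libraries also belong to tables by which the members were chosen.

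MMF, the monoester, left these genes near their level in DMSO at the same dose and times. At 24 h, the median log2FC of the 44 was 0.06, from -0.14 ± 0.06 for *Dnmt1* to 0.34 ± 0.17 for *Pole2*, and none was called by limma, edgeR, DESeq2 or the block, beside 0.00707% of all genes by limma and 1.38% with the block. The 95% interval of the log2FC lay within 0.5 of 0 for 39 members and within 1 for all 44. At 4 h, the median was 0.01, from -0.22 ± 0.20 for *Cdt1* to 0.14 ± 0.27 for *Gins2*, the interval lay within 0.5 for 38 members, and no member was called by any of the 4 tests, beside 0 of all genes by limma and with the block. An unadjusted p under 0.05 was found for 4 members at 24 h and for none at 4 h. MMF vs. DMSO at both times had a part in the choice of the members, so these counts describe the set and test nothing.

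Set directly against each other at 30 µM, the 2 fumarates differed in these genes at 24 h. This is 1 pair of compounds at 2 times, and since DMF vs. DMSO and MMF vs. DMSO both chose the members, it is given as a description. All 44 members had a lower mean with DMF than with MMF at 24 h, where 51.9% of all genes did, with a median log2FC of -0.68, from -1.54 ± 0.11 for *Rrm2* to -0.12 ± 0.15 for *Prim1*. By limma 24 were called lower (38 with the block), beside 2.12% of all genes (7.28% with the block). Without DMF replicate 2, 11 were called, and without MMF replicate 1, 2 or 3, 5, 8 and 15. At 4 h, none was called by limma or edgeR and 1 by DESeq2, beside 1.61% of all genes by limma and 744 of 14200 by DESeq2. An unadjusted p under 0.05 in limma was found for 11 members and for 2477 of all genes. With the block 12 were called, 3 higher and 9 lower, beside 23.6% of all genes. The range at 4 h ran from -0.75 ± 0.19 for *Rad54l* to 0.53 ± 0.11 for *Ccne1*, the members at both ends of DMF vs. DMSO as well.

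CBD against EtOH gave no call either. At 24 h, the median log2FC was -0.03, from -0.54 ± 0.33 for *Rrm2* to 0.29 ± 0.14 for *Brca2*, and none was called by limma, edgeR, DESeq2 or the block, beside 0.114% of all genes by limma and 0.504% with the block. The libraries spread more than with MMF, and the 95% interval lay within 0.5 of 0 for 22 members and within 1 for 42. At 4 h, the median was -0.03, with a range from -0.27 ± 0.17 for *Rrm2* to 0.17 ± 0.15 for *Cdc45*, and all 44 intervals lay within 1. Again no test called a member, beside 0.00705% of all genes by limma and 2.33% with the block. At each time, 1 member had an unadjusted p under 0.05. CBD vs. EtOH also had a part in the choice of the members, so these counts too are a description and no test. DMF at 30 µM and CBD at 6 µM were not compared directly, since dose and vehicle differed.

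The vehicles themselves differed slightly at 24 h. DMSO was below EtOH for 39 of 44 members, where 49.9% of all genes had a log2FC below 0, with a median of -0.15, but none was called by limma, edgeR, DESeq2 or the block, beside 0 of all genes by limma and 0.486% with the block. Of the 44, 9 had an unadjusted p under 0.05, and the smallest limma adjusted p was 0.973, for *Cdt1*. At 4 h, the median of DMSO minus EtOH was 0.03, no member was called or had an unadjusted p under 0.05, and 0.39% of all genes were called with the block. From 4 to 24 h, the median log2FC was 0.07 in EtOH, -0.06 in MMF and 0.05 in CBD, with no call among the members by any of the 4 tests. Of all genes, limma called none in these 3 comparisons, and the block called 1.05%, 1.82% and 0.0142%. An unadjusted p under 0.05 was found for 2 members in EtOH, 1 in MMF and 2 in CBD, and the smallest limma adjusted p was 0.426, for *E2f1* in MMF.

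**Figure D4:**
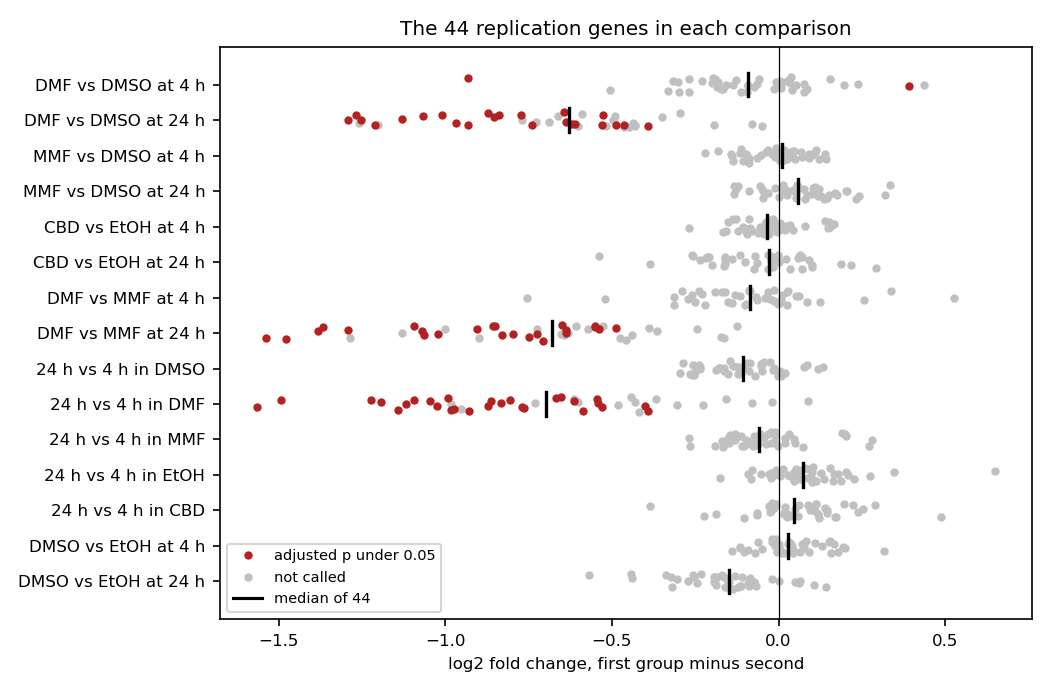
Log2 fold change of the 44 replication genes (points) and their median (bar) in each of the 15 comparisons, with the genes at a limma adjusted p under 0.05 in red. Medians lie at -0.63, -0.68 and -0.70 in the 3 comparisons that hold DMF at 24 h, and between -0.15 and 0.07 in the other 12.

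Genes of the same pathway outside the 44 were not used to choose the members. Their lists were, however, drawn up with earlier results of these data known. The counts and p-values given for them therefore describe the lists and are no independent test. Of 55 further replication and S phase records tested in DMF vs. DMSO at 24 h, 10 fell and none rose by limma (22 fell with the block), beside 2.09% and 1.88% of all genes. Those with the smallest p were *Rmi2*, a partner of the Bloom helicase (log2FC -1.18 ± 0.16, adjusted p = 0.00591), *Pclaf*, a PCNA-binding factor (-1.49 ± 0.22, adjusted p = 0.00746), and *Ticrr*, which brings Cdc45 to origins (-1.19 ± 0.19, adjusted p = 0.0117). The median of the 55 was -0.23, against -0.01 for all genes. The list was uneven: the 6 subunits of the origin recognition complex, which many cells keep outside the cycle, ranged from -0.18 ± 0.14 for *Orc6* to 0.16 ± 0.16 for *Orc1*, and none was called. *Gins4*, *Rfc2* and *Prim2*, direct partners of members, had log2FC values of -0.27 ± 0.18, -0.30 ± 0.11 and -0.48 ± 0.14 and were not called either, although the block called *Rfc2* and *Prim2*. These genes were chosen for mention after their values were seen.

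The regulators of the G1/S step went both ways. *Cdkn1a*, the Cdk inhibitor p21, had 927, 1422 and 1193 normalized counts with DMF at 24 h and 387, 320 and 326 with DMSO, and rose by a log2FC of 1.76 ± 0.15 (limma adjusted p = 0.000638). *Cdkn2b*, the Cdk4 and Cdk6 inhibitor p15, had 96.3, 136 and 170 with DMF and 40.3, 47.8 and 31.1 with DMSO, and rose by 1.71 ± 0.25 (limma adjusted p = 0.00682). Every DMF library was above every DMSO library for both, and both calls held without any 1 library. Of the 32 genes on the list, 7 fell, with the smallest p for *Mybl2*, an activator of late cell cycle genes (-1.07 ± 0.13, adjusted p = 0.0031), *E2f7*, a repressive E2F (-0.93 ± 0.16, adjusted p = 0.0139), and *Rbl1*, the pocket protein p107 (-0.66 ± 0.14, adjusted p = 0.0319). The call of *Rbl1* held in 1 of the 6 fits that left out a library and that of *E2f7* in 3. The retinoblastoma gene *Rb1* itself, picked after its values were seen, had a log2FC of -0.01 ± 0.07 and was not called.

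At 4 h of DMF, limma called none of these 87 partner records, 26 of which had an unadjusted p under 0.05, while with the block 18 rose and 9 fell, beside 11.5% of all genes in each direction. *Cdkn1a* had 679, 354 and 550 normalized counts with DMF and 519, 250 and 402 with DMSO at 4 h. In each replicate number the DMF library was the higher one, and the log2FC was 0.45 ± 0.30 (limma adjusted p = 0.464, and 0.00145 with the replicate block). *Cdkn2b* had 42.9, 50.8 and 45.5 against 62.0, 70.1 and 58.1, a log2FC of -0.44 ± 0.19 (adjusted p = 0.247, and 0.125 with the block). From 4 to 24 h of DMF, 40 partner records fell by limma and 4 rose (*Cdkn2b*, *Cdkn1a*, *Myc* and *Tk2*), beside 7.93% and 7.59% of all genes. The replication gene with the smallest p was *Dbf4*, the activator of the Cdc7 kinase (-1.51 ± 0.14, adjusted p = 0.000512). With MMF against DMSO and CBD against EtOH at 4 and 24 h, limma called no partner record, beside at most 0.114% of all genes. The block called 1 with MMF at 24 h and 2 with CBD at 4 h, beside 1.38% and 2.33% of all genes.

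Mitosis genes fell as well. On a list of 24 made after results of these data were known, all 23 that could be tested fell with DMF at 24 h by limma, beside 2.09% of all genes, with a median log2FC of -1.09. At 4 h limma called none (10 had an unadjusted p under 0.05) and the median was 0.22, while 12 rose with the block, beside 11.5% of all genes. *Top2a*, topoisomerase II alpha, had 538, 425 and 513 normalized counts with DMF at 24 h and 1470, 1270 and 1337 with DMSO (log2FC -1.47 ± 0.10, limma adjusted p = 0.000511).

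**Figure D5:**
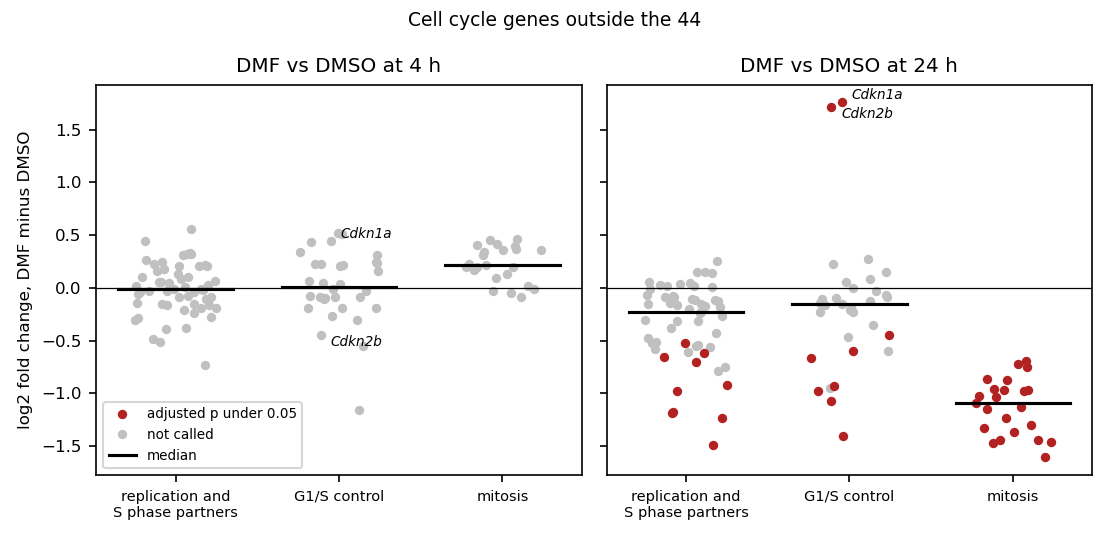
Log2 fold change, DMF minus DMSO, of cell cycle genes outside the 44 at 4 h (left) and 24 h (right), with medians as bars and genes at a limma adjusted p under 0.05 in red. At 24 h the mitosis genes have a median of -1.09 and the replication partners of -0.23, and *Cdkn1a* and *Cdkn2b* stand at 1.76 and 1.71.

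Over the 30 libraries, the genes outside all lists whose log2 CPM most resembled the mean of the 44 were *Ncaph* (Pearson r = 0.979), *Cenpa* (0.96), *Pbk* (0.957), *Kif15* (0.955) and *Depdc1b* (0.951), each centred within replicate number. *Ncaph* encodes a condensin subunit and *Cenpa* the centromeric histone. Of the members themselves, *Clspn* (0.974), *Mcm5* (0.964) and *Mcm10* (0.963) lay nearest to that mean, which includes them, and *Prim1* (0.567) and *Tyms* (0.285) farthest from it. On the mitosis list, *Ccna2* (0.961) lay nearest to the mean of the members, and *Kif23* (0.755) and *Foxm1* (0.154) farthest. The 30 points share 10 groups and the pull of the DMF libraries at 24 h, so that these values describe a shared pattern and no more.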

How the data were processed

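Poly(A) RNA of 30 libraries, 3 for each of 10 groups, was sequenced. Per the labels and the paper's methods, the authors used Cutadapt 4.4 and Trimmomatic 0.39 for trimming, HISAT2 2.2.1 for alignment (assembly mRatBN7.2), HTSeq 2.0.3 for counting and DESeq2 1.40.2 for testing. HTSeq's strand setting is not given in the sources used here, so reads in overlapping genes are uncertain. The signal values the authors deposited are counts divided by a DESeq2 size factor within the 6 libraries of each of 15 tables. In 89 columns the values were whole reads times 1 factor (tolerance 0.001), and these reads were recovered. The one other column, of MMF replicate 1 at 24 h, took its reads from that library's other tables. The deposited log2 fold changes and p-values of the authors' own tests, and 4 tables of CBD against a fumarate, were not used.

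Each table was tested with limma 3.58.1 (empirical Bayes, mean trend) on log2(normalized count + 1), in R 4.3.3, after edgeR 4.0.16's filterByExpr, which left 13967 to 14283 genes, with Benjamini-Hochberg adjustment over them and a call at an adjusted p under 0.05. A log2FC on this scale understates low genes, and errors beside it are SE. The fit had no block, since the study's methods name none. Libraries carry replicate numbers 1 to 3 and the experiment was repeated 3 times. Deviations of same-numbered libraries correlated positively in all 15 comparisons (0.129 to 0.668, against at most 0.185 between different numbers). In MMF vs. DMSO at 4 h, however, replicate 2 correlated at 0.129, while a pair of different numbers reached 0.134. From 4 to 24 h in DMSO, replicate 1 correlated at 0.162, while such a pair reached 0.185. The numbers were taken to pair the libraries, and blocked values are printed where they change a count. Levels across groups are TMM-scaled CPM. The members and lists were chosen with earlier results of these data known. Single members get no p where the comparison, or its difference, chose them. Counts of members called, or with an unadjusted p under 0.05, only describe the set there. Per role, library values are given for the 2 members with the largest change with DMF at 24 h, and partner genes named are the 3 rising and 3 falling calls with the smallest p per list. Alternatives were TMM, DESeq2 1.42.0, edgeR, no filter, a pseudocount of 0.1, the block and leaving out each library, with edgeR plus block added after seeing the data. The test was tried on simulated data. Tables and figures were made in Python 3.11.15 (matplotlib 3.10.9, pandas 2.3.3, NumPy 2.4.6). The partner symbol *Ctf18* and the marker *Cldn5* matched no listed gene.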

Additional observations from a re-analysis of the deposited data

Results flagged for a closer look

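Some members moved one way in all 3 replicate numbers at 4 h and the other way in all 3 at 24 h. With DMF against DMSO, *Ezh2* had a log2FC of 0.39 at 4 h and -0.46 at 24 h, *Ccne1* 0.44 and -0.49, and *Pole2* 0.24 and -0.66. With MMF against DMSO, *Rfc3* had -0.14 and 0.10, *E2f1* -0.14 and 0.15, and *Ccne1* -0.10 and 0.14, and with CBD against EtOH, *Cdc45* had 0.17 and -0.21. Of all genes, 26.3% were lower and 27.3% higher in all 3 replicate numbers with DMF at 4 h. At 24 h these shares were 24.6% and 22.8%. With MMF they were 8.94% and 6.57% at 4 h and 17.6% each at 24 h. With CBD they were 17.8% and 18.3% at 4 h and 22.8% and 20.2% at 24 h. The share of all genes that reversed was not computed, and the difference between the times was not tested. None of the MMF and CBD values was called at either time, while *Ezh2* with DMF was called at both. The *Ezh2* call at 4 h was lost whichever library was left out, and that at 24 h did not hold in every such fit. The span of *Ezh2* also overlaps *Cul1*, a gene with more reads. Groups of 3 libraries are too small for a check of single outlying libraries.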

How the results depend on the processing

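Of 195 recomputed counts of members called, 166 stayed within 1.5 times the reported one and 29 moved beyond it. All 29 lay in comparisons that hold a DMF group. The 10 comparisons without one gave a count of 0 in every fit, and these are among the 166, so the pooled share overstates how stable the counts with calls were. Of 195 recomputed medians, 187 moved by less than the spread between replicates and 8 by more. No called value changed sign, but some medians near 0 did. The median of CBD vs. EtOH at 24 h went from -0.03 to 0.06 without CBD replicate 3. That of DMSO vs. EtOH at 4 h went from 0.03 to -0.03 without DMSO replicate 1. With the replicate block, which rests on the pairing of libraries by number, limma called 37 members in DMF vs. DMSO at 24 h (main 23), 7 at 4 h (main 2), 38 in DMF vs. MMF at 24 h (main 24) and 12 at 4 h (main 0). With edgeR and the block, chosen after seeing the data, these counts were 37, 7, 38 and 12. The block changed no other count by over 1.5 times. At 4 h, DESeq2 called 4 members in DMF vs. DMSO, beside 1024 of 14208 genes. In DMF vs. MMF at 4 h it called 1, beside 744 of 14200 genes. Without a filter, 1 was called in DMF vs. DMSO at 4 h. When each library was left out in turn, the counts ranged from 5 to 35 in DMF vs. DMSO at 24 h, 0 to 0 at 4 h, 5 to 30 in DMF vs. MMF at 24 h and 17 to 30 in DMF at 24 vs. 4 h. In the other 10 comparisons, no alternative called any member. With 3 libraries a group, low genes such as *E2f2* were estimated least closely. Leaving out a library also made its group smaller, and the cause of the changed counts was not tested. The share of all genes called was not computed for these fits, for the fit without a filter or for edgeR with the block.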
